A study of Mus musculus with 4 samples.

Results

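The genes described here are the insulin-like growth factors, their receptors and their binding proteins in mouse lung: the ligand genes Igf1 and Igf2, the receptor genes Igf1r and Igf2r, and the binding protein genes Igfbp2, Igfbp3, Igfbp4, Igfbp5, Igfbp6 and Igfbp7. They were chosen by gene name, and all 10 were found once each among the 43346 genes of the deposited table and passed the filter on low counts. The libraries held polyadenylated RNA labelled as lung epithelial cells. Libraries B and E came from IL-33 transgenic mice (genotype label IL-33 over-expression), and libraries D and F from control mice. The labels give no age, sex, strain, transgene promoter or number of mice per library, and call the controls only control. The p-values below therefore measure the spread between these libraries, and the labels do not say how far that is a spread between mice.

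The insulin-like growth factors are secreted peptides that signal cell growth and survival through the tyrosine kinase receptor encoded by Igf1r. The receptor encoded by Igf2r, which is also the mannose 6-phosphate receptor, takes up IGF2 and delivers it to lysosomes. Secreted binding proteins hold most of the ligand, and proteases such as the pappalysins release it again. In the lung, mesenchymal cells and macrophages are known sources of IGF1. In mice Igf2 is transcribed from the paternal and Igf2r from the maternal allele.

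Libraries held 76120696 counts (B), 80764860 (D), 87723745 (E) and 85330145 (F). Il33, which checks the labels, stood at 1723 and 874 counts per 1000000 (CPM) in transgenic libraries B and E and at 117 and 108 CPM in controls D and F. The pan-epithelial markers were present in all libraries, at a summed 1625 CPM in B, 1359 in D, and 1088 and 1075 in E and F for 5 genes. So were the 6 endothelial markers, at 3892, 5137, 6213 and 6793 CPM, and the 9 fibroblast markers, at 1056, 1741, 2404 and 2797 CPM in the same order, so the libraries were not of epithelial RNA alone. Relative to D, the Y-linked level (summed over Eif2s3y, Kdm5d, Uty and Ddx3y) came to 0.554% for B, 9.0% for E and 47.5% for F. Sex composition thus differed between the libraries. The Y-linked level set B and E below D and F, and so split the genotypes by itself. In such bulk libraries, fewer cells of a type and less RNA per cell cannot be told apart.

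On a per-length scale, 4 of the 6 binding protein genes stood highest in the family by mean level, while Igfbp3 stood lowest. In CPM per kilobase of the deposited gene model, averaged over the 4 libraries, Igfbp7 stood highest at 343 (range 260.2 to 402). It was followed by Igfbp5 at 111 (83.0 to 141), Igfbp4 at 62.9 (42.7 to 76.5), Igfbp2 at 33.9 (17.6 to 60.5) and the receptor gene Igf2r at 28.2 (24.8 to 30.5). Below these came Igf2 at 20.1 (15.1 to 23.2), Igfbp6 at 15.6 (11.4 to 19.4), Igf1r at 13.3 (12.0 to 14.6), Igf1 at 2.63 (0.846 to 4.17) and Igfbp3 at 2.25 (1.79 to 2.79). The ranges of Igfbp7, Igfbp5 and Igfbp4 did not overlap one another, nor did those of Igf2r and Igf2, or of Igf1r and Igf1. Igfbp4 stood above Igfbp2 in each of the 4 libraries, although their ranges overlapped. The order differed between libraries for Igfbp2 and Igf2r, Igfbp2 and Igf2, Igf2 and Igfbp6, Igfbp6 and Igf1r, and Igf1 and Igfbp3. In E and F Igfbp2 stood below both Igf2r and Igf2.

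**Figure D1:**
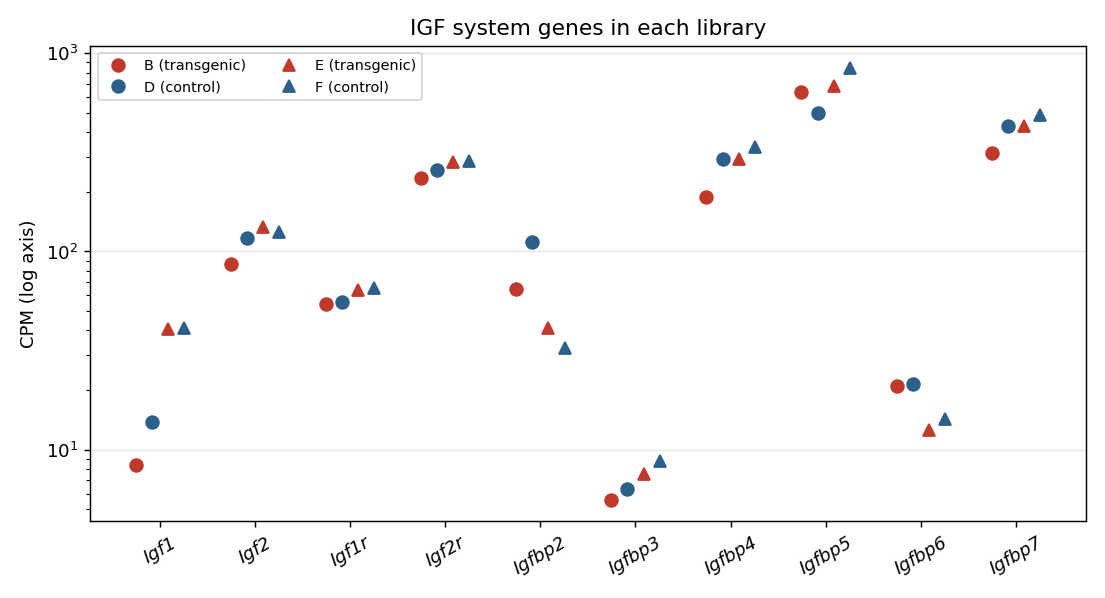
Level of each gene in each library, in CPM on a log axis, with transgenic libraries in red and controls in blue (circles for B and D, triangles for E and F). Igf1 ran from 8.38 CPM in B to 41.3 in F, and the genotypes overlapped for all genes but Igfbp4 and Igfbp7.

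No gene of the family passed the test between genotypes. Of the 10 genes, 0 were called by edgeR's quasi-likelihood test at an adjusted p of 0.05, where 0% of the 20872 genes tested were called. Even Il33, at a log2 fold change of 3.53 (SE 0.37), was not called in this fit. The lack of a call therefore does not show that levels were equal. At an unadjusted p under 0.05 there were 0 of the 10, where 1.29% of all genes tested had such a value. DESeq2 and limma-voom likewise called 0 of the 10 and gave 0 with an unadjusted p under 0.05. Without library E 4 of the 10 had such a value (Igf1, Igf2, Igfbp4 and Igfbp7), where 11.5% of all genes did, and without F 1 did (Igfbp2), where 1.49% of all genes did. Without B and without D 0 of the 10 did, where 1.92% and 0.556% of all genes did. The unadjusted p-values of the 10 in the edgeR quasi-likelihood test ran from 0.15 (Igfbp4) to 0.929 (Igfbp5), and every adjusted p was 1. All 10 fitted log2 fold changes, transgenic minus control, were below 0, from -0.45 to -0.03, with a median of -0.16, against a median of -0.00128 and 50.4% of values below 0 over all genes tested. That uniform sign rested on single libraries: without B, 4 of the 10 were below 0, and without F, 5 of the 10.

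Igf1, on chromosome 10 (87858265 to 87937042, GRCm38), encodes the ligand that drives much of postnatal growth. Transgenic libraries B and E held 8.38 and 40.6 CPM, and controls D and F held 13.8 and 41.3 CPM. Each genotype thus had 1 library with a low and 1 with a high value, and the groups overlapped. Transgenic libraries averaged 24.5 ± 22.8 CPM and controls 27.5 ± 19.5 CPM (SD, n = 2 each), a log2 fold change of -0.17 (SE 0.84). The SD within each genotype was several times the difference between the means. The lowest value rested on 633 reads, with an exact Poisson 95% interval of 585 to 684, so the 4.93-fold range between libraries was far beyond counting error. Intervals of this kind cover counting error only. Of the 12588 genes tested that averaged at least 5 CPM, 0.302% had a wider range between libraries on the log2 scale.

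Igf2, on chromosome 7 (142650766 to 142666816), encodes the ligand that dominates fetal growth. Its level was 86.2 and 133 CPM in transgenic libraries B and E and 118 and 125 CPM in controls D and F. The groups overlapped, with the transgenic libraries holding the lowest and the highest value. The log2 fold change was -0.15 (SE 0.22). The antisense gene Igf2os, which overlaps Igf2, held 81 to 162 reads per library, against 6513 to 11758 for Igf2, and Igf1os, which overlaps Igf1, had at most 5. The sources used here do not state whether reads were counted by strand, so reads from such partners cannot be told apart. Igfbp7 likewise overlaps the oppositely oriented Polr2b by 85 bases and the antisense gene Gm34648 by 7085 bases. Gm49394 overlaps Igf2 on the same strand by 16048 bases. Neither Gm34648 nor Gm49394 was among the deposited genes, so no counts show their level.

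The proportion of the ligand genes differed between libraries of the same genotype. On the per-length scale Igf1 made up 5.32% of the summed Igf1 and Igf2 level in B and 6.34% in D, and 15.04% in E and 16.1% in F. Within each of these pairs of libraries the control value was slightly the higher.

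The receptor genes were the least variable of the family. Igf1r, on chromosome 7 (67952859 to 68226780), had 54.1 and 63.9 CPM in transgenic libraries B and E and 55.8 and 65.7 CPM in controls D and F. Its transgenic mean was 59.0 ± 6.97 CPM and its control mean 60.7 ± 6.97 CPM (SD, n = 2 each), a log2 fold change of -0.04 (SE 0.14). Igf2r, on chromosome 17 (12682406 to 12769664), had 234 and 284 CPM in the transgenic and 258 and 287 CPM in the control libraries, in the same order (log2 fold change -0.08, SE 0.15). The genotypes overlapped for both genes. Their highest library exceeded the lowest by 1.21-fold for Igf1r and 1.23-fold for Igf2r. Airn, the antisense RNA through which Igf2r is imprinted in mice, overlaps Igf2r and held 570 to 674 reads per library, against 17662 to 25156 for Igf2r.

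Igfbp4 and Igfbp7 had the smallest p-values of the family in the edgeR quasi-likelihood test, and were the only members whose transgenic libraries both lay below both controls. The IGFBP4 protein restrains IGF signalling until it is cleaved by the protease encoded by Pappa, and IGFBP7 is a low-affinity family member abundant around blood vessels. Igfbp4 (chromosome 11, 99041244 to 99054392) had 189 and 291 CPM in transgenic libraries B and E and 294 and 338 CPM in controls D and F (log2 fold change -0.40, SE 0.23, unadjusted p = 0.15, adjusted p = 1). Igfbp7 (chromosome 5, 77349240 to 77408045) had 316 and 429 CPM in B and E and 430.5 and 488 CPM in D and F (log2 fold change -0.30, SE 0.19, unadjusted p = 0.172, adjusted p = 1).

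The separation of the genotypes in these genes was narrow. It came down to library E lying below library D at a ratio of 0.991 for Igfbp4 and 0.995 for Igfbp7. Counting error was ±1.28% in D and ±1.22% in E for Igfbp4, and ±1.05% and ±1.01% for Igfbp7 (half-widths of exact Poisson 95% intervals). E and D were thus not distinguishable by counting alone. The spread within a genotype was larger, with transgenic libraries averaging 240 ± 72.5 CPM for Igfbp4 and 372 ± 79.8 CPM for Igfbp7 (SD, n = 2). Of the 10 genes, 2 had both transgenic libraries below both controls, where 12% of all genes tested did, and 0 had both above, where 11.9% did. With 1 library left out there are fewer values to separate, and the first count was 3 without B, 7 without D, 7 without E and 4 without F, where 28%, 31.8%, 38.6% and 27.1% of all genes were so separated. The count of members above the controls was 1 without B, 1 without D, 0 without E and 1 without F, where 28.5%, 30.7%, 35.7% and 27.3% of all genes were. Several marker lists moved with both genes, the endothelial list among them. Per 100 CPM of the 6 summed endothelial markers, Igfbp4 stood at 4.85 CPM in B, 5.72 in D, and 4.69 and 4.98 in E and F, and Igfbp7 at 8.11, 8.38, 6.90 and 7.18, so the range of Igfbp4 narrowed from 1.79-fold to 1.22-fold and that of Igfbp7 from 1.55-fold to 1.22-fold. Of the 11 marker lists, 5 narrowed the range of Igfbp4, among them smooth muscle (1.46-fold) and fibroblast (1.48-fold) markers, and 3 that of Igfbp7, among them smooth muscle (1.48-fold). The part of any cell type in these values was not tested.

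Igfbp4 and Igfbp7 were thus both lowest in B and highest in F, while Igfbp2 was highest in D and lowest in F. This was not particular to the pair, since Igf1, Igf1r, Igf2r and Igfbp3 were also lowest in B and highest in F. The 250 bases before the RefSeq transcription start of Igfbp2, Igfbp4 and Igfbp7 (GRCm38.p6) are shown so that the promoters can be compared. Matches on either strand to a TATA box (TATAAA), a GC box (GGGCGG) and an E-box (CACGTG) are in capitals. No match to a CCAAT box (CCAAT) lay in these windows, and no marked matches overlap. The windows lie at chr1:72824230-72824479 (plus strand) for Igfbp2, chr11:99040994-99041243 (plus strand) for Igfbp4 and chr5:77408046-77408295 (minus strand) for Igfbp7.
Igfbp2: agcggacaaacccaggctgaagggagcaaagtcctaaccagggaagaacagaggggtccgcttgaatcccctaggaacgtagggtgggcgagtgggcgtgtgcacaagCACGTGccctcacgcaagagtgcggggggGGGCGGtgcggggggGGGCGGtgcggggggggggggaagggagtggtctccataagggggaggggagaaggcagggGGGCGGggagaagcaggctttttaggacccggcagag
Igfbp4: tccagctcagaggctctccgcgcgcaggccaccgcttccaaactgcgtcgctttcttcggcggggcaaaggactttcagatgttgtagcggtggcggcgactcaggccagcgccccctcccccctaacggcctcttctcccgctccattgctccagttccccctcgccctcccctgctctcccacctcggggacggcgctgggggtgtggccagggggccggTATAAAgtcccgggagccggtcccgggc
Igfbp7: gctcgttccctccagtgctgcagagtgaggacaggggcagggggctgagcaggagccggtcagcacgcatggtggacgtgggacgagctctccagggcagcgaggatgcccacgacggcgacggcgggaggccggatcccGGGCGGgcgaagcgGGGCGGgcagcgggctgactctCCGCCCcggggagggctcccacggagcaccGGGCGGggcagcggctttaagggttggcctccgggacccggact

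The windows of Igfbp4 and Igfbp7 had no motif in common. The Igfbp4 window held 1 TATA box, 28 to 23 bases before the start, and 0 GC boxes. The Igfbp7 window held 4 GC boxes and the Igfbp2 window 3 GC boxes and 1 E-box, and neither held a TATA box. In the same 250-base windows of 32851 RefSeq starts, 12.4% held a TATA box, 32.7% a GC box, 33.9% a CCAAT box and 6.02% an E-box. All 3 windows were rich in G and C, at 67.2% for Igfbp2, 69.2% for Igfbp4 and 74.0% for Igfbp7, against a median of 52.4%. A match describes the letters only.

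Igfbp2 and Igfbp6 were higher in libraries B and D than in E and F. Igfbp2 (chromosome 1, 72824503 to 72852474) encodes a binding protein with affinity for both ligands. Transgenic libraries B and E held 64.8 and 41.2 CPM, and controls D and F held 112 and 32.6 CPM. The controls held both the highest and the lowest library, so the genotypes overlapped, with a mean of 53.0 ± 16.7 CPM in the transgenic and of 72.2 ± 56.0 CPM in the control group (SD, n = 2 each; log2 fold change -0.45, SE 0.59). The direction turned without D (0.70). It also turned when the fit took in the Y-linked level of each library (1.99), D being the library with the highest Y-linked share. In edgeR's quasi-likelihood test that fit gave Igfbp2 an unadjusted p under 0.05, where 0.383% of all genes had one, and an adjusted p of 1. The Y-linked level splits the genotypes by itself, so with 4 libraries this fit cannot part sex from genotype. The value of 1.99 is therefore not a genotype difference adjusted for sex. Igfbp6 (chromosome 15, 102144362 to 102149511), whose product prefers IGF2, had 21.0 and 12.6 CPM in B and E and 21.5 and 14.2 CPM in D and F (log2 fold change -0.09, SE 0.32).

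Igfbp5 and Igfbp3 ran the opposite way between these libraries. Igfbp5 (chromosome 1, 72857932 to 72874884), the neighbour of Igfbp2, encodes a protein that also binds the extracellular matrix. Its level was 635 and 687 CPM in B and E and 498 and 848 CPM in D and F, and the transgenic libraries lay between the controls (log2 fold change -0.03, SE 0.28). Igfbp3 (chromosome 11, 7206086 to 7213923), which encodes the main carrier of IGF in serum, was scarce here with 5.60 and 7.56 CPM in B and E and 6.33 and 8.75 CPM in D and F (log2 fold change -0.20, SE 0.25). Its lowest value rested on 423 reads, with a counting error of ±9.65%. The genotypes overlapped for both genes.

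Igfbp7 dominated the mixture of binding protein transcripts in each library. Summed per length, the 6 genes reached 464 CPM per kilobase in B, 586 in D, and 570 and 653 in E and F, and Igfbp7 made up 56.0%, 60.5%, 62.0% and 61.6% of this in the same order. The share of Igfbp2 was 7.55% in B and 10.3% in D but 3.91% in E and 2.70% in F. That of Igfbp6 was 4.07% and 3.30% in B and D and 1.99% and 1.96% in E and F. The share of Igfbp5 was lowest in D, at 14.2%, and 20.1% to 22.8% in the other libraries.

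**Figure D2:**
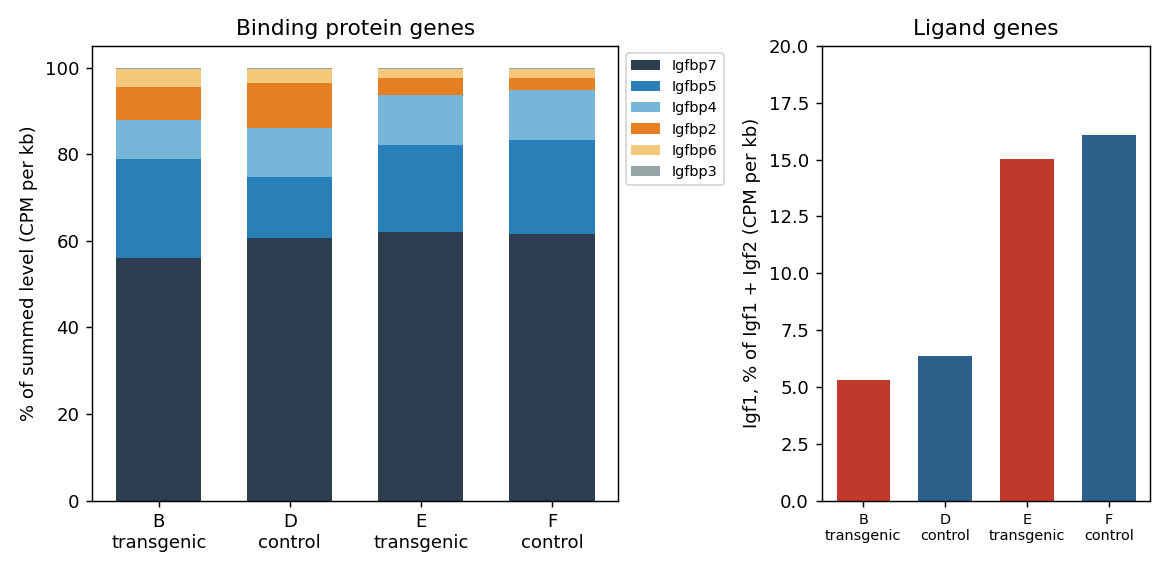
Left, share of each binding protein gene in the summed level of the 6 genes in each library (percent of CPM per kilobase); right, share of Igf1 in the summed Igf1 and Igf2 level, with transgenic libraries in red and controls in blue. Igf1 made up 5.32% and 6.34% in B and D and 15.04% and 16.1% in E and F, while the Igfbp2 share ran from 2.70% in F to 10.3% in D.

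Across the family, most genes set libraries B and D apart from E and F. Both B and D lay below both E and F for 6 of the 10 genes (Igf1, Igf2, Igf1r, Igf2r, Igfbp3 and Igfbp5), where 27.3% of all genes tested did. They lay above for 2 (Igfbp2 and Igfbp6), where 26.7% of all genes did. The mean of E and F over that of B and D was 3.70-fold for Igf1 and 1.16-fold to 1.37-fold for the other 5 of the first set. The mean of B and D over that of E and F was 2.39-fold for Igfbp2 and 1.58-fold for Igfbp6. This split of the libraries was seen in the data, is not a group of the study and has no label, so these values are a description with no test. With a term for it in the edgeR fit, 0 of the 10 genes and 0 of all genes were called between genotypes. In that fit the smallest adjusted p of a member was 0.799, shared by Igfbp4 (log2 fold change -0.43) and Igfbp7 (-0.32), which were also the 2 members with an unadjusted p under 0.05, where 6.14% of all genes had one in that fit.

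**Figure D3:**
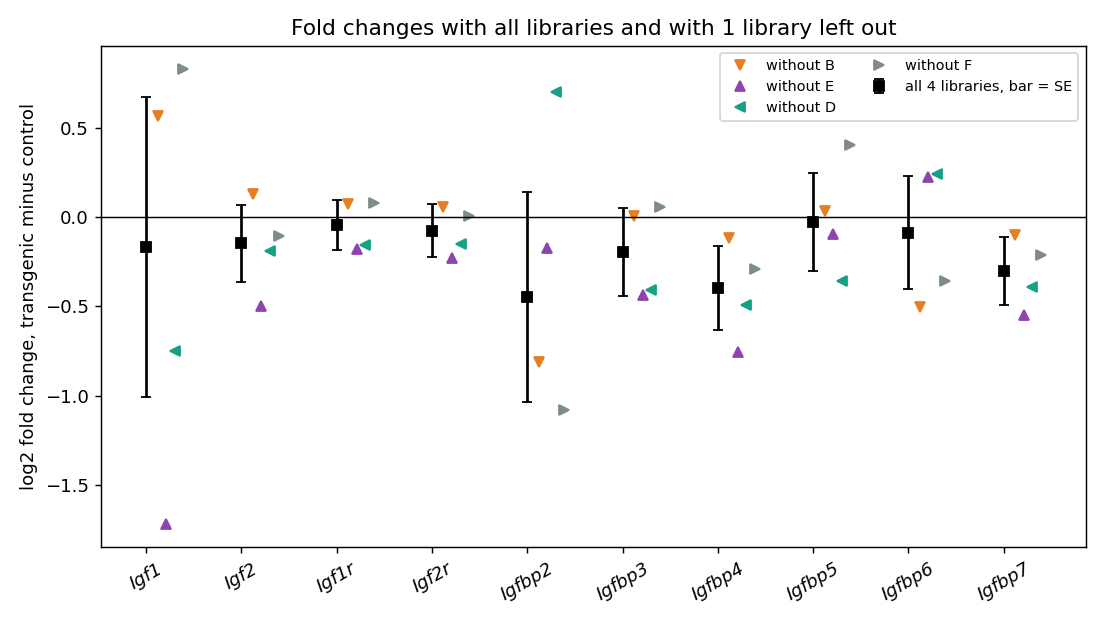
Log2 fold change, transgenic minus control, of each gene with all 4 libraries (black squares, bars are standard errors) and with 1 library left out (coloured triangles). Igf1 ran from -1.72 without E to 0.83 without F and Igfbp2 from -1.08 without F to 0.70 without D, while Igfbp4 and Igfbp7 stayed below 0 in all 4 fits.

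The 2 members with the widest range between libraries were compared with all other genes averaging at least 5 CPM, by the root mean square difference of centred log2 CPM over the 4 libraries. Nearest to Igf1 were Pdgfra, the PDGF receptor gene of fibroblasts (difference 0.09), Ppbp, a platelet chemokine gene (0.10), and the metalloproteinase gene Adamts8 (0.13). Pdgfra stood at 4.51 CPM in B, 7.72 in D, and 24.9 and 21.2 in E and F. Nearest to Igfbp2 were the mesothelial gene Upk3b (0.12), the ligand gene Wnt3a (0.12) and the mesothelial gene Msln (0.14). Msln stood at 107 CPM in B, 144 in D, and 53.6 and 43.9 in E and F. Likeness over 4 libraries is a description only, since all genes share the depth and cell composition of each library.

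**Figure D4:**
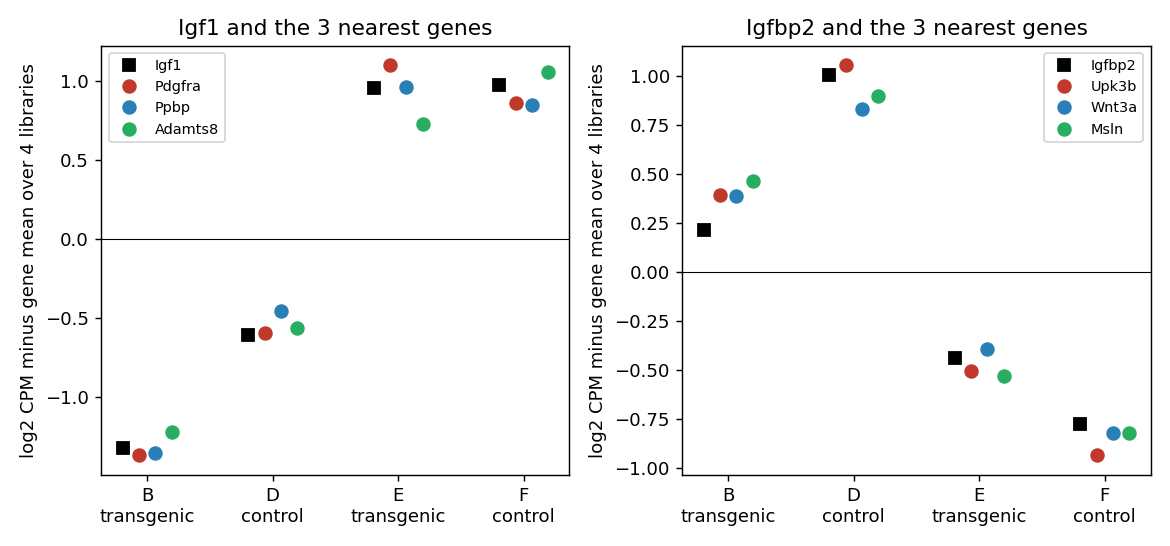
Log2 CPM of Igf1 (left) and Igfbp2 (right) and of the 3 genes nearest to each, minus the gene's mean over the 4 libraries. Igf1, Pdgfra, Ppbp and Adamts8 lay below their means in B and D and above them in E and F, and Igfbp2, Upk3b, Wnt3a and Msln the reverse.

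Markers of other cell types moved with these libraries in turn. The 4 mesothelial markers summed to 131 CPM in B, 182 in D, and 67.4 and 54.8 in E and F, and all 4 were higher in B and D. Wt1 (0.953, 1.25, 0.779 and 0.751 CPM in B, D, E and F) and Lrrn4 (5.20, 8.14, 3.31 and 2.89 CPM) had the smallest p of that list. Per 100 CPM of these markers Igfbp2 stood at 49.4 CPM in B, 61.3 in D, and 61.0 and 59.5 in E and F, a 1.24-fold range against 3.43-fold for Igfbp2 itself. Most of the mesothelial sum was Msln (107 CPM in B, 144 in D, and 53.6 and 43.9 in E and F). Msln and Upk3b were found above as near to Igfbp2 in these same values, so this narrowing is not separate support. The 4 epithelial lists narrowed the range of Igfbp2 too, to between 1.78-fold (alveolar type 1) and 2.71-fold (pan-epithelial). For Igf1 the 9 fibroblast markers gave 0.793 CPM per 100 in B, 0.791 in D, and 1.69 and 1.48 in E and F, so a 2.14-fold range remained. The smooth muscle list left 2.97-fold, the endothelial list 3.04-fold and the interstitial macrophage and monocyte list 4.83-fold, against 4.93-fold for Igf1 itself. The 5 alveolar macrophage markers, at 144 CPM in B, 169 in D, and 279 and 293 in E and F, gave 5.83, 8.13, 14.6 and 14.1. Most of that sum was Car4 (104 CPM in B, 147 in D, and 185 and 226 in E and F; named after its values were seen), which lung capillary endothelium also expresses. For Igfbp5 the 5 smooth muscle markers (619, 731, 1012 and 1229 CPM) gave 103 CPM per 100 in B and 67.9 to 68.9 in the other libraries. That was a 1.51-fold range against 1.70-fold for Igfbp5 itself. The interstitial macrophage and monocyte list (1.53-fold) and the endothelial list (1.68-fold) narrowed the range of Igfbp5 too. The part of these cell types in the members' values was not tested.

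In some marker lists genes lay apart between the genotypes, although 0 genes of any list were called in the edgeR quasi-likelihood test. All 3 pan-leukocyte genes were higher in both transgenic libraries, among them Coro1a (12.5 and 16.9 CPM in B and E, 6.30 and 9.46 in D and F) and Cd52 (2.54 and 3.35, 1.65 and 1.84 CPM). So were 3 of 6 interstitial macrophage and monocyte genes, among them Ccr2 (6.57 and 5.40, 2.89 and 3.19 CPM) and Cx3cr1 (2.0 and 2.09, 1.08 and 1.04 CPM). Of all genes tested, 11.9% had both transgenic libraries above both controls, and 12% had both below. Both transgenic libraries lay below both controls for 2 of 9 fibroblast genes (Tcf21 and Col13a1) and 1 of 6 endothelial genes (Egfl7). All 3 pan-leukocyte genes and 2 of the interstitial macrophage and monocyte genes had an unadjusted p under 0.05 in that test, where 1.29% of all genes tested did. In the other lists 0 genes did. For Igf1 the genotypes overlapped, with transgenic library B the lowest. The part of macrophages in its level was not tested. For alveolar macrophages 3 of 5 genes were above 0 and 2 below (median log2 fold change 0.94), and 0 were separated. Marco and Siglecf had the smallest p of that list, with log2 fold changes of 0.94 (SE 0.81) and 1.14 (SE 0.91), while Car4 stood at -0.37 (SE 0.34) and Fabp4 at -0.12 (SE 0.21). Cell type lists of stroma and vessels had medians below 0, where 50.4% of all genes tested were below 0. For fibroblasts the median was -0.40 (8 of 9 below 0, led by Col13a1 at -0.60, SE 0.43, and Tcf21 at -0.40, SE 0.29). It was -0.28 for smooth muscle (5 of 5, Cnn1 and Acta2), -0.28 for endothelium (6 of 6, Egfl7 and Cldn5) and -0.30 for mesothelium (4 of 4). Without library B the log2 fold changes shrank for Col13a1 (-0.089), Tcf21 (-0.046), Cnn1 (-0.091), Acta2 (0.001), Egfl7 (-0.10) and Cldn5 (-0.092). Those of the mesothelial genes Wt1 (-0.36) and Lrrn4 (-0.74) did not.

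The epithelial lists each held 0 genes separated by genotype. Of all genes tested, 12% had both transgenic libraries below both controls and 11.9% had both above. The median log2 fold change was 0.21 for alveolar type 2 cells (Lamp3 and Slc34a2 had the smallest p), 0.01 for alveolar type 1 cells (Hopx and Aqp5), 0.07 for airway club and ciliated cells (Cyp2f2 and Scgb1a1) and 0.15 for the pan-epithelial genes (Cdh1 and Nkx2-1). All 5 alveolar type 2, 5 alveolar type 1 and 5 pan-epithelial genes were higher in B and D than in E and F, as Igfbp2 and Igfbp6 were.

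The genes around the family gave no call between genotypes either. Of 8 genes for binding protein proteases, their inhibitors and other carriers, 6 were tested, 0 were called and 4 were below 0 (median log2 fold change -0.14). Htra1, encoding a serine protease that cleaves binding proteins, had 35.7 and 70.8 CPM in B and E and 55.4 and 78.8 CPM in D and F (log2 fold change -0.33, SE 0.36). Stc1, encoding a stanniocalcin that inhibits pappalysins, stood at 9.50 and 18.6 CPM against 14.4 and 20.5 CPM (-0.31, SE 0.36). Both were lower in B and D than in E and F, as were 4 of the 6. Pappa2, the gene of a pappalysin that cleaves IGFBP5 and was named after its values were seen, stood at 2.94 CPM in B and 4.0 in D but 19.9 in E and 22.2 in F. Igfbp1 had at most 4 reads in any library and was not tested.

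Downstream of the receptors, 22 of 22 genes were tested, 0 were called and 13 were above 0 (median log2 fold change 0.04). Of the 22, 5 had both transgenic libraries above both controls, where 11.9% of all genes tested did. They included Irs1, a receptor substrate gene (95.2 and 95.7 CPM against 84.2 and 89.6 CPM, log2 fold change 0.14, SE 0.09), and Pik3ca, the gene of a PI3-kinase catalytic subunit (152 and 150 CPM against 138 and 138 CPM, 0.13, SE 0.10). Of the growth hormone axis 6 of 8 genes were tested and 0 were called (median 0.02), led by Socs2, the gene of a feedback inhibitor (93.8 and 90.9 CPM against 77.7 and 85.3 CPM, 0.18, SE 0.10), and the kinase gene Jak2 (0.11, SE 0.11). Of the IGF2 mRNA-binding proteins and H19, 4 were tested and 0 called (median 0.07). H19, the maternally expressed RNA of the Igf2 locus, had 292 and 347 CPM in B and E and 415 and 372 CPM in D and F (log2 fold change -0.30, SE 0.15, unadjusted p = 0.0957 and adjusted p = 1 in edgeR's quasi-likelihood test). Its transgenic libraries lay below both controls, as did those of 12% of all genes tested, whereas those of Igf2 overlapped them. The log2 fold change of H19 was -0.18 without B. It was -0.046 with the Y-linked level as covariate, a fit that cannot part sex from genotype. Igf2bp2 stood at 33.2 CPM in B and 27.9 in D but 21.0 in E and 21.3 in F.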

How the data were processed

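Polyadenylated RNA of mouse lung cells was sequenced in 2 transgenic and 2 control libraries. Reads were processed with TopHat2 (version 2), Bowtie (version 1) and featureCounts (version 1) on mm10, which is GRCm38, per the submitters' processing notes. Neither the annotation nor the strand setting nor the handling of multiple matches is given there. The authors deposited unnormalized whole-number counts per gene, together with RPKM values, which were not used here. Levels per length used the deposited model length; although headed coding length, 38.1% of the values were multiples of 3, so it is not coding sequence alone.

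The filter was filterByExpr (at least 10 counts, total of at least 15) and the scaling TMM. The quasi-likelihood test of edgeR (version 4.0.16, in R 4.3.3) compared transgenic with control libraries across all genes, with Benjamini-Hochberg adjustment at 0.05 over 20872 genes. A standard error is the fold change on the log2 scale over the root of the F statistic. CPM uses TMM-scaled totals. All pairs of libraries differed beyond sampling noise (chi-square per gene 18.1 or more). Symbols of other genes came from GENCODE M21 by identifier (42462 of 43346). Promoters came from RefSeq, which held all 10 genes; the nearest start to the deposited gene edge was taken.

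The members and lists were chosen with earlier results of these data known. Named besides the members were the 2 genes of smallest p in each list, and for the 2 members of widest range among those averaging at least 5 CPM, the 3 nearest genes (prior count 1). Alternatives were DESeq2 size factors, upper-quartile factors, dropping the filter or raising it (1 CPM in 2 libraries, total 20), each library left out, DESeq2 1.42.0, limma-voom (limma 3.58.1), other quasi-likelihood settings, a term that sets B and D apart from E and F, and a covariate for the Y-linked level. Recounting the members without overlap under these settings was added after seeing the data. A check on simulated counts used a single dispersion, no split between libraries and another quasi-likelihood setting. It does not show which changes the fit can detect in these data.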

Additional observations from a re-analysis of the deposited data

How the results depend on the processing

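Members called between genotypes numbered 0 in each direction under all alternatives run. Genes called higher numbered 1 (Il33) with DESeq2 and 0 to 5 with 1 library left out, and genes called lower 0 to 12 (12 without E). Members with both transgenic libraries below both controls numbered 3 to 7 with 1 library left out, and those above 0 to 1. With 3 libraries fewer values must be in order, and 27.1% to 38.6% of all genes lay below and 27.3% to 35.7% above.

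Of the members, Igfbp4 and Igfbp7 kept their direction under all alternatives (-0.75 to -0.12 and -0.55 to -0.10 on the log2 scale). With 1 library left out the log2 fold changes ran from -1.72 to 0.83 for Igf1, -0.50 to 0.13 for Igf2, -0.18 to 0.080 for Igf1r, -0.23 to 0.059 for Igf2r, -1.08 to 0.70 for Igfbp2, -0.44 to 0.057 for Igfbp3, -0.36 to 0.41 for Igfbp5 and -0.50 to 0.24 for Igfbp6. Igfbp5 also turned with limma-voom (0.025) and with a term setting B and D apart (0.023), and Igfbp2 (1.99) and Igfbp6 (0.57) when the Y-linked level was a covariate. That covariate also took Igf1 to -1.56, Igfbp5 to -0.93, Igfbp3 to -0.68, Igf1r to -0.29 and Igf2r to -0.22 without changing their direction. Fold changes with that covariate, here and below, do not separate sex from genotype, since the Y-linked level splits the genotypes by itself.

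Among the other genes named, those that changed direction with 1 library left out were Acta2 (-0.65 to 0.084), Aqp5 (-0.56 to 0.56), Cdh1 (-0.11 to 0.44), Cyp2f2 (-0.22 to 0.41), Hopx (-0.31 to 0.20), Htra1 (-0.92 to 0.079), Igf2bp2 (-0.23 to 0.42), Lrrn4 (-0.94 to 0.56), Marco (-0.13 to 2.27), Nkx2-1 (-0.045 to 0.37), Scgb1a1 (-0.16 to 0.47), Siglecf (-0.037 to 2.75), Stc1 (-0.88 to 0.096) and Wt1 (-0.53 to 0.20). With the Y-linked covariate the direction changed for Jak2 (-0.16), Socs2 (-0.0014), Wt1 (0.72), Lrrn4 (1.62), Hopx (0.52), Aqp5 (1.35), Marco (-0.92) and Siglecf (-1.02). With a library left out, a genotype has a lone library, which is assumed to vary like the other group. The labels give no replicate numbers by which libraries could be paired. The term setting B and D apart from E and F acts as a block, since each side holds 1 library of each genotype, but it was chosen from the data. With it 0 genes were called, and 1281 genes had an unadjusted p under 0.05, against 269 without it. Depth limits the comparison of E with D for Igfbp4 and Igfbp7 and the counts of Igfbp3. The comparison of genotypes is limited by the 2 libraries per group and their spread.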
